A study of Mus musculus with 6 samples.

Results

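The machinery that copies DNA, with the enzymes that supply its nucleotides, was examined in CD4+TCRβ+ T cells of naive female mice through 49 genes: the origin recognition and licensing factors, the MCM2-7 helicase and its activators, the replicative polymerases and primase, the sliding clamp and its loader, the single-strand binding and Okazaki fragment proteins, the nucleotide enzymes, the chromatin and methylation factors that follow the fork, and the E-type cyclins. The genes were chosen by name, as textbook members of this machinery, and not by their values, although earlier results of these data were known. Each was read from the transcript cluster (the probes that the array summarizes together) that carries its symbol, and the cluster with the highest mean over the arrays was taken for the 3 genes with several. All 49 were measured, among 23410 tested transcript clusters with a gene symbol.

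Both groups were C57BL/6J females aged 8 weeks, described as naive and taken from mixed-sex litters. The B6 group was wild type, and the B6-ChrYSJL group came from the consomic strain that carries the Y chromosome of SJL on the B6 background. Females inherit no Y chromosome, so the groups differ in the Y chromosome of their sires and brothers and not in one of their own. Each group had 3 pools of 5 mice, sorted from axillary, brachial and inguinal lymph nodes on CD4 and TCRβ, and each pool was read on 1 array from 50 ng of amplified RNA. The sort used no marker of activation, memory or regulatory T cells, so all CD4+ T cells of the nodes were included.

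DNA replication is prepared in G1, when ORC, Cdc6 and Cdt1 load the MCM helicase onto origins, and starts in S phase, when Cdc45 and the GINS complex activate it. Polymerase alpha with primase lays the first stretch of each strand, and polymerases delta and epsilon extend it with the PCNA clamp. Most of these genes are transcribed in late G1 and S phase under the E2F factors, and resting T cells express them at low levels until antigen drives division. In bulk RNA a lower value can come from fewer dividing cells or from less of the RNA in each cell, and these cannot be told apart.

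The promoters of these genes are known for E2F sites. In RefSeq promoters (GRCm38.p6, 250 bases before to 50 after each start), 39 of the 49 genes had an entry, with 46 promoters in all. The 8-letter words TTTCCCGC, TTTGGCGC, TTTCGCGC and TTTGCCGC were searched on both strands; neighbouring words can overlap. At least 1 word was found in 16 of the 46 promoters (34.8%), against 2.26% of 32851 promoters of all genes and 3.83% of 12337 promoters of genes with a transcript above the background level. CCAAT, a common promoter word searched on both strands, was in 26 of 46 (56.5%), against 37.4% and 36.6%. Of the 12 promoters of members that were lower in B6-ChrYSJL at an unadjusted p under 0.05, 5 held an E2F word (41.7%), and of the 34 other promoters 11 did (32.4%). These matches describe letters in a window and are not evidence of binding. The windows of 3 lower members with a word are printed with that of Rfc3, a clamp loader gene with 2 words that was not lower, to show that both kinds occur; each runs 5′ to 3′ from 200 bases before to 10 after the start, with E2F words in capitals (on the opposite strand they read as the reverse complement). Mcm7 and Uhrf1 have 2 RefSeq promoters each, and the one with a word is shown.
Mcm7, chr5:138171874-138172083, minus strand: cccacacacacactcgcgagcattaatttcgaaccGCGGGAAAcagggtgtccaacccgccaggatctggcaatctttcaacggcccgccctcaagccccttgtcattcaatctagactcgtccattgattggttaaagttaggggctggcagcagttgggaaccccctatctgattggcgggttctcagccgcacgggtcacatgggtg
Pclaf, chr9:65890123-65890332, plus strand: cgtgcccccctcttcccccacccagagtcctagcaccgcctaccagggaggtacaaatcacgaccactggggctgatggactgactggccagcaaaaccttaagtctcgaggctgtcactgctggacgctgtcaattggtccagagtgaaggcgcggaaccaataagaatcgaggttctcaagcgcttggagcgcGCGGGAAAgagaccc
Uhrf1, chr17:56304113-56304322, plus strand: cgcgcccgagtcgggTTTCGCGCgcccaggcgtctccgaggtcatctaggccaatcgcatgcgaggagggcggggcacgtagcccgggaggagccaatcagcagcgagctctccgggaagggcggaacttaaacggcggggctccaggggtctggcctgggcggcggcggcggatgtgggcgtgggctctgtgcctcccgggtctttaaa
Rfc3, chr5:151651199-151651408, minus strand: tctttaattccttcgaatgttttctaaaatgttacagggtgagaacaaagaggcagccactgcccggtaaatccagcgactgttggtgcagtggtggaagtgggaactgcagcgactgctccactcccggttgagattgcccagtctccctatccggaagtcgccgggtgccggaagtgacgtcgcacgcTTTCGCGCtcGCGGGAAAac

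Values are log2 RMA levels, in which a difference of 1 is a doubling, and differences are B6-ChrYSJL minus B6 from limma with its standard error (SE). Pearson's r between arrays over tested transcripts was 0.995 to 0.996 and array medians lay between 6.41 and 6.44. A value was called above background when it exceeded 5.98, the 95th percentile over 1210 transcripts of the olfactory and vomeronasal receptors, a class that lymphocytes do not normally express; 61.6% of tested transcripts did so. All 6 measured T cell markers (Cd4, Cd3d, Cd3e, Cd3g, Cd5 and Cd28) averaged 10.8 to 12.5, and none differed at an unadjusted p under 0.05. Of these, only Cd4 sets helper T cells apart from CD8 T cells. The p-values set each difference against the spread between pools. For that spread, limma draws the variance of each gene toward that of all tested transcripts. Precision is limited by the number of arrays, and with 3 pools a group the smallest p of an exact permutation test would be 0.1.

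Replication genes were mostly lower in B6-ChrYSJL T cells, by small amounts, and none passed the test across all genes. Of the 49 members, 46 had a mean above the background level; Orc1, Mcm10 and Gins1 did not, and Cdc6 and Pole were below it in the B6-ChrYSJL mean only. In all, 39 members had a difference below 0 (79.6%), against 51.1% of all tested transcripts and 55.6% of those above background, and 10 lay above 0. The median difference was −0.11 and the range ran from −0.34 to 0.17, while the median was −0.0036 over all tested transcripts and −0.0156 over those above background.

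In limma, 0 members passed an FDR of 0.05 or of 0.1 after Benjamini-Hochberg adjustment over all tested transcripts. Across the 23410, 4 transcripts did at 0.05 (0.0171%) and 17 at 0.1 (0.0726%). Among the clusters used, the smallest adjusted p of a member was 0.258, for Uhrf1. At an unadjusted p under 0.05, 11 members were lower (22.4%) and 0 were higher, beside 5.92% lower and 4.69% higher over all tested transcripts and 7.15% lower among those above background. The ranges of the pools did not overlap for 15 members, all lower in B6-ChrYSJL, beside 9.42% lower and 7.68% higher without overlap over all tested transcripts. All 11 members at that p are among the 15, and both counts rest on the same values, so neither adds support to the other.

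**Figure D1:**
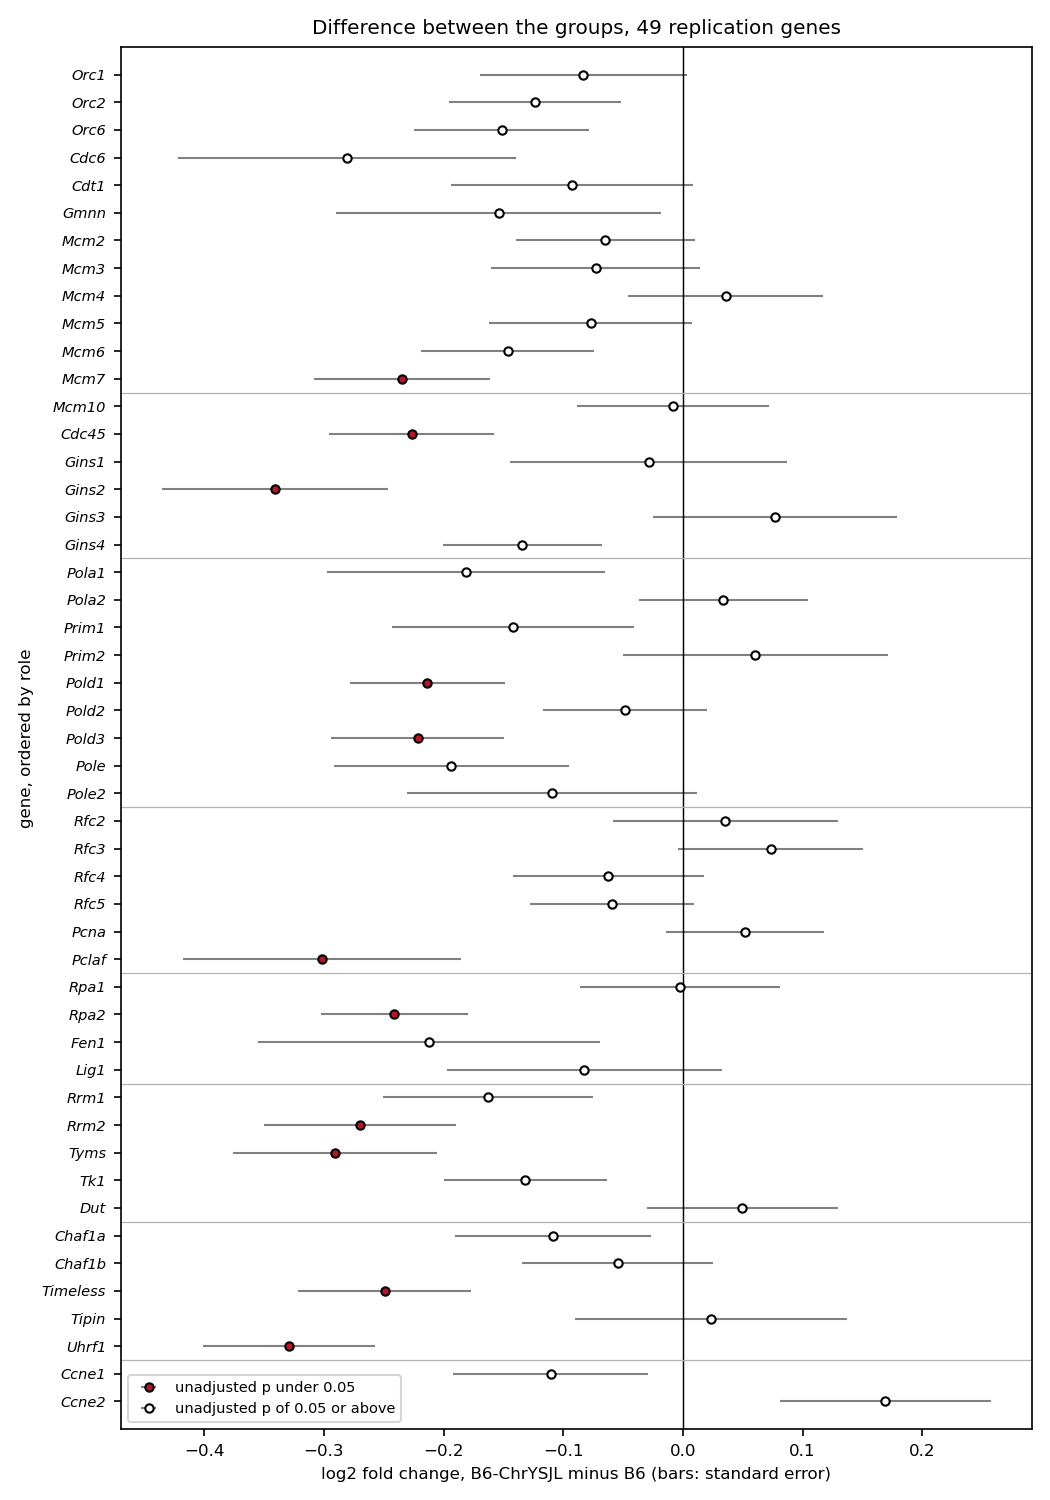
Log2 difference (B6-ChrYSJL minus B6, horizontal axis) of each of the 49 replication genes, grouped by role, as points with bars of 1 standard error from limma over 3 pools a group; filled points mark members at an unadjusted p under 0.05. Most points lie left of 0, Gins2 lowest at −0.34 and Uhrf1 at −0.33, and Ccne2 lies farthest right at 0.17.

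Among the origin licensing genes, 11 of 12 had a difference below 0 (median −0.11), and 3, Orc6, Mcm6 and Mcm7, had pools that did not overlap. Mcm7, a subunit of the replicative helicase, read 8.58, 8.58 and 8.64 in the B6 pools and 8.35, 8.48 and 8.27 in the B6-ChrYSJL pools. All B6-ChrYSJL pools lay below the lowest B6 pool, and the difference was −0.23 (SE 0.07, limma adjusted p = 0.368), the only one of this group at an unadjusted p under 0.05. Without B6-ChrYSJL replicate 3 the difference was −0.18 and the unadjusted limma p rose to 0.0502. Cdc6, a loader of the helicase, was at −0.28 (SE 0.14) with overlapping pools and a B6-ChrYSJL mean below background.

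The other MCM2-7 subunits lay closer to 0. Mcm6 lay at −0.15, Mcm5 at −0.08, Mcm3 at −0.07 and Mcm2 at −0.07, and all of these but Mcm6 had overlapping pools. Mcm4 read 9.38, 9.12 and 9.24 in B6 and 9.26, 9.24 and 9.34 in B6-ChrYSJL. Its pools were intermixed, with a difference of 0.04 (95% CI −0.15 to 0.22, limma adjusted p = 0.905), which reached −0.03 without B6 replicate 2. The median over the 6 subunits was −0.07. For the others of this group, the origin subunits Orc1, Orc2 and Orc6 lay at −0.08, −0.12 and −0.15, the loader Cdt1 at −0.09 and geminin (Gmnn), the inhibitor of Cdt1, at −0.15.

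Among the clusters used, helicase activation held the largest difference of all members, although the dimmer Pclaf cluster described below was lower, at −0.77. Gins2, a subunit of the GINS complex, read 8.01, 8.03 and 8.19 in B6 and 7.59, 7.71 and 7.90 in B6-ChrYSJL. The groups did not overlap, with B6-ChrYSJL replicate 1 the lowest pool, and the difference was −0.34 (SE 0.09, limma adjusted p = 0.337). Cdc45, which joins GINS and MCM2-7 in the active helicase, read 6.82, 6.78 and 6.69 in B6 and 6.50, 6.50 and 6.60 in B6-ChrYSJL. Its groups were also separate (−0.23, SE 0.07, limma adjusted p = 0.362). Gins4 read 9.37, 9.50 and 9.43 in B6 and 9.26, 9.35 and 9.28 in B6-ChrYSJL, again with no overlap (−0.13, SE 0.07, limma adjusted p = 0.519). The other subunits differed from these: Gins3 lay at 0.08 and Gins1, below background, at −0.03. Mcm10, also below background, was at −0.01.

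Among the polymerases and primase, 7 of 9 differences lay below 0, with a median of −0.14. Pold1, the catalytic subunit of polymerase delta, read 7.77, 7.82 and 7.81 in B6 and 7.52, 7.61 and 7.64 in B6-ChrYSJL. Its groups did not overlap (−0.21, SE 0.06, limma adjusted p = 0.361). Pold3, an accessory subunit of the same enzyme, read 7.68, 7.64 and 7.78 in B6 and 7.46, 7.56 and 7.41 in B6-ChrYSJL. It too showed no overlap (−0.22, SE 0.07, limma adjusted p = 0.379), but its unadjusted limma p rose above 0.05 without B6 replicate 3 (−0.18) or without B6-ChrYSJL replicate 3 (−0.19). Pold2, a further subunit, read 9.22, 9.17 and 9.06 in B6 and 9.08, 9.13 and 9.10 in B6-ChrYSJL, intermixed pools with a difference of −0.05 (95% CI −0.21 to 0.11, limma adjusted p = 0.837). Polymerase alpha split, with Pola1 at −0.18 and Pola2 at 0.03, as did the primase, with Prim1 at −0.14 and Prim2 at 0.06. Polymerase epsilon gave Pole, whose B6-ChrYSJL mean was below background, at −0.19 and Pole2 at −0.11. All 6 of these had overlapping pools.

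**Figure D2:**
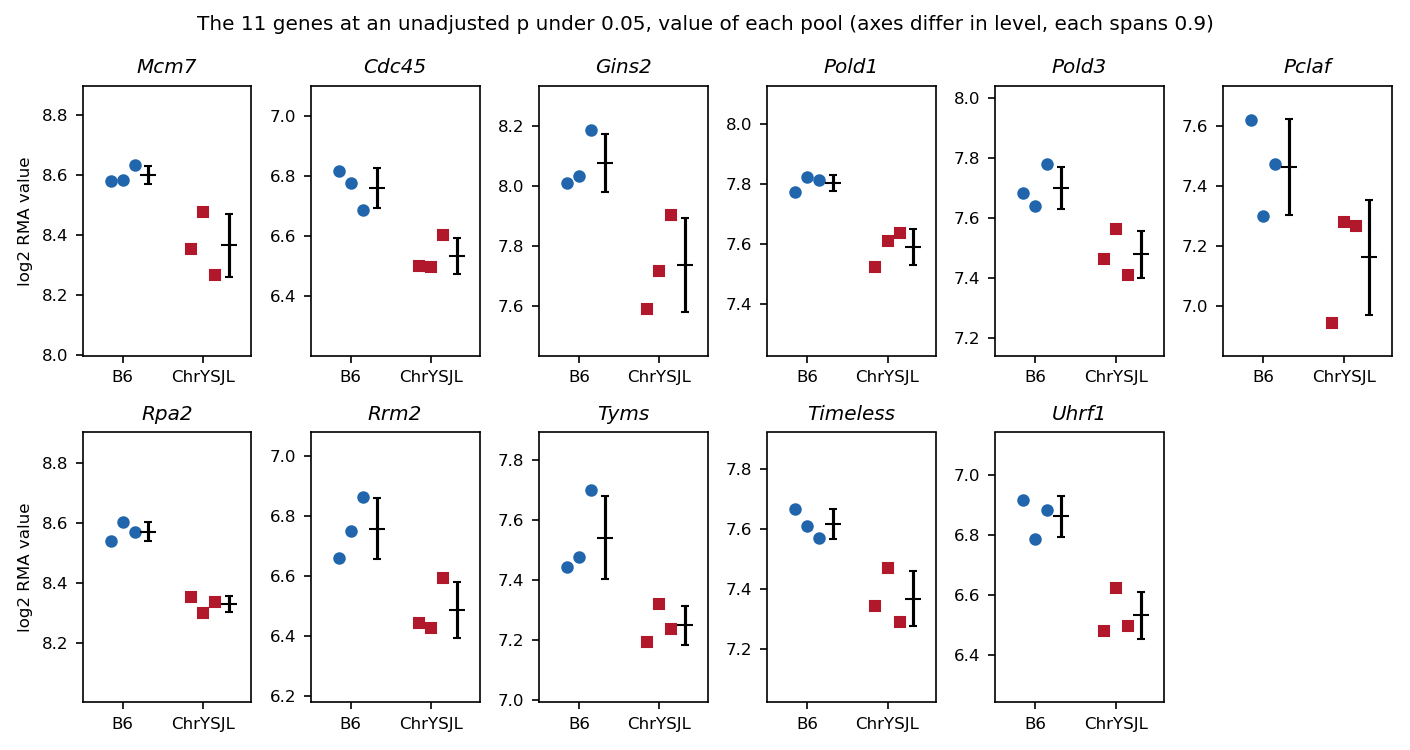
Log2 RMA value (vertical axis) of the 11 members at an unadjusted p under 0.05 in each pool (B6 circles, B6-ChrYSJL squares) on axes of equal span that differ in level, with the mean and SD of each group. For every one of them, all 3 B6-ChrYSJL pools lie below the lowest B6 pool. The genes were picked by a p from these same values, so this separation is not a further finding. The gap is small for Pclaf, where 7.28 in B6-ChrYSJL replicate 2 faces 7.30 in B6 replicate 2.

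The clamp and its loader had 3 of 6 differences below 0, with a median of −0.01. Pcna, the sliding clamp, read 11.50, 11.59 and 11.55 in B6 and 11.53, 11.61 and 11.65 in B6-ChrYSJL, intermixed, with a difference of 0.05 (95% CI −0.10 to 0.20, limma adjusted p = 0.818). The loader subunits Rfc2, Rfc3, Rfc4 and Rfc5 lay at 0.04, 0.07, −0.06 and −0.06. Against these, Pclaf, a PCNA-binding protein, read 7.62, 7.30 and 7.47 in B6 and 6.94, 7.28 and 7.27 in B6-ChrYSJL. Its groups were barely separate, and B6-ChrYSJL replicate 1 lay well below the other pools (−0.30, SE 0.12, limma adjusted p = 0.431). The unadjusted limma p of Pclaf, 0.0306, rose above 0.05 without B6 replicate 1 (−0.22), without B6 replicate 3 (−0.30) and without B6-ChrYSJL replicate 1 (−0.19), and also, with the difference at −0.30, in the ordinary linear model and with the replicate number as a block.

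Pcna, Pclaf and Tk1 each had 2 transcript clusters on the array, and the annotation does not say whether both lie at the gene or 1 at a near-identical copy elsewhere. In the order of cluster numbers, the other members with a promoter entry run chromosome by chromosome. By that order the dimmer cluster of each gene has a number that can lie on its own chromosome, and the brighter one, used here, has one that cannot. The values given for these 3 genes may therefore come from copies. The dimmer Pclaf cluster read 6.24, 6.43 and 6.02 in B6 and 5.25, 5.67 and 5.45 in B6-ChrYSJL. All of its B6-ChrYSJL pools lay below the background level and all of its B6 pools above it, so the measured difference of −0.77 (SE 0.13, limma adjusted p = 0.168) is not an exact size. The dimmer Pcna cluster gave 0.14 (SE 0.07, limma adjusted p = 0.514), with B6-ChrYSJL pools all above the B6 pools, and the dimmer Tk1 cluster gave −0.27 (SE 0.12, limma adjusted p = 0.487). Each gene's 2 clusters had differences of the same sign, and whether their sizes differ was not tested.

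Single-strand binding and Okazaki fragment joining contributed Rpa2, the member with the smallest SE of the 11. Rpa2, a subunit of the protein that coats single-stranded DNA, read 8.54, 8.60 and 8.57 in B6 and 8.35, 8.30 and 8.34 in B6-ChrYSJL. Its groups did not overlap (−0.24, SE 0.06, limma adjusted p = 0.319). Its partner subunit Rpa1 read 8.96, 9.00 and 9.03 in B6 and 8.90, 9.16 and 8.93 in B6-ChrYSJL, intermixed, with a difference of −0.00 (95% CI −0.19 to 0.19, limma adjusted p = 0.992). Its sign was not stable: it was 0.05 without B6-ChrYSJL replicate 1 and 0.03 after a repeated quantile normalization. The flap endonuclease Fen1 lay at −0.21 and DNA ligase 1 (Lig1) at −0.08, both with overlapping pools.

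Nucleotide supply had the lowest median of the 8 role groups, −0.16, with 4 of 5 members below 0. Tyms, thymidylate synthase, which makes dTMP, read 7.44, 7.48 and 7.70 in B6 and 7.19, 7.32 and 7.23 in B6-ChrYSJL. Rrm2, the small subunit of ribonucleotide reductase, read 6.66, 6.75 and 6.86 in B6 and 6.44, 6.43 and 6.60 in B6-ChrYSJL. Both were separate between groups, with B6 replicate 3 the highest pool, at −0.29 (SE 0.08, limma adjusted p = 0.352) and −0.27 (SE 0.08, limma adjusted p = 0.359). Tk1, the salvage kinase of thymidine, read 8.55, 8.69 and 8.59 in B6 and 8.46, 8.44 and 8.54 in B6-ChrYSJL. Its pools did not overlap, although the gap was only that between 8.54 and 8.55 (−0.13, SE 0.07, limma adjusted p = 0.533). The large reductase subunit Rrm1 lay at −0.16 and Dut, which removes dUTP, at 0.05, and both overlapped between groups.

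Among the clusters used, the chromatin, fork protection and methylation group contained the member with the smallest p. The dimmer Pclaf cluster had a smaller one (limma adjusted p = 0.168). Uhrf1, which binds hemimethylated DNA and brings the maintenance methyltransferase to new strands, read 6.91, 6.79 and 6.88 in B6 and 6.48, 6.62 and 6.49 in B6-ChrYSJL. All B6-ChrYSJL pools lay below the lowest B6 pool, and the difference was −0.33 (SE 0.07, limma adjusted p = 0.258). Timeless, a fork protection factor, read 7.67, 7.61 and 7.57 in B6 and 7.34, 7.47 and 7.29 in B6-ChrYSJL. It also showed no overlap (−0.25, SE 0.07, limma adjusted p = 0.349). Tipin, the binding partner of Timeless, read 8.26, 8.03 and 8.16 in B6 and 7.93, 8.34 and 8.25 in B6-ChrYSJL, intermixed, at 0.02 (95% CI −0.24 to 0.28, limma adjusted p = 0.956); without B6-ChrYSJL replicate 2 it was −0.06. The chromatin assembly subunits Chaf1a and Chaf1b lay at −0.11 and −0.05. The E-type cyclins, which drive entry into S phase, ran opposite ways with overlapping pools: Ccne1 read 7.58, 7.37 and 7.55 in B6 and 7.31, 7.48 and 7.38 in B6-ChrYSJL (−0.11, SE 0.08, limma adjusted p = 0.660), and Ccne2 read 6.27, 6.41 and 6.15 in B6 and 6.40, 6.56 and 6.38 in B6-ChrYSJL (0.17, SE 0.09, limma adjusted p = 0.536).

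**Figure D3:**
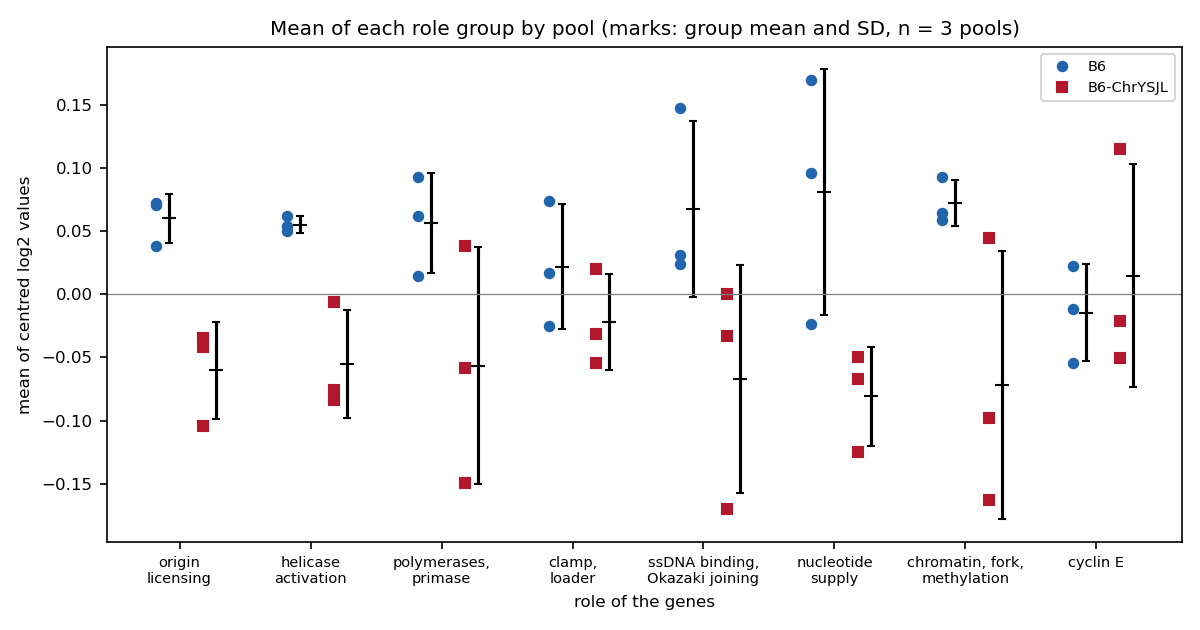
Mean over the members of each role of the log2 value minus its mean over the 6 arrays (vertical axis, log2), by pool (B6 circles, B6-ChrYSJL squares), with the mean and SD of the 3 pools beside them. The role groups with the lowest B6-ChrYSJL pools are the single-strand binding group at −0.17 in replicate 1 and the chromatin group at −0.16 in replicate 1.

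The size of the shift varied between the pools of B6-ChrYSJL. Taken as the mean over members of each value minus its 6-array mean, the members read 0.05, 0.05 and 0.06 in B6 and −0.11, −0.01 and −0.04 in B6-ChrYSJL. The B6 pools were nearly equal and all above the B6-ChrYSJL pools, of which replicate 1 was the lowest. That pool had the lowest value of the 6 arrays for 21 of the 49 members, while 15.7% of all tested transcripts were lowest there. B6-ChrYSJL replicates 2 and 3 were lowest for 8 and 7 members, against 17.8% and 17.2% of all tested transcripts. Each gene has only 1 lowest pool, so the 21 in replicate 1 leave fewer for the others. These counts therefore do not show whether the shift was in replicate 1 alone. The median SD within groups was 0.10 for the members, 0.10 for all tested transcripts and 0.09 for those above background. Without B6-ChrYSJL replicate 1 the median difference of the members was −0.08, and leaving out any pool in turn gave 10 to 15 members lower at an unadjusted p under 0.05.

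**Figure D4:**
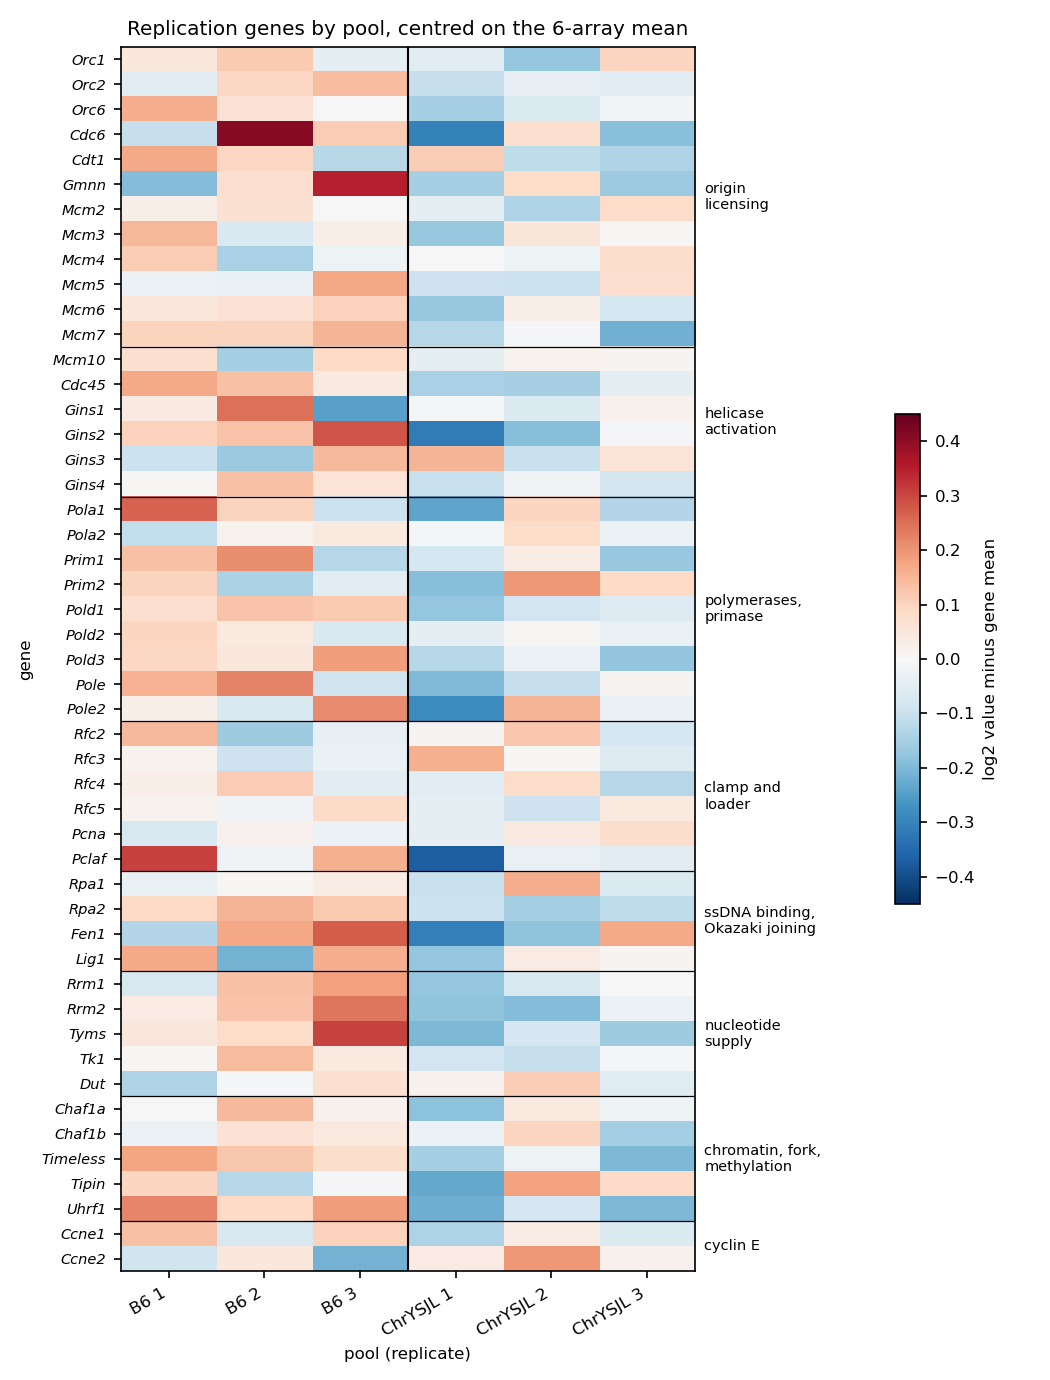
Heat map of the log2 value minus the 6-array mean (colour scale, log2) for the 49 members (rows, by role) in the 6 pools (columns). Blue, the lower side, is commonest in B6-ChrYSJL replicate 1, where 21 members have their lowest value.

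Other replication genes, chosen in the same way but outside the 49, gave a mixed picture. Of 52 listed, 49 were measured with a symbol of their own, and 6 were lower (12.2%) and 4 higher at an unadjusted p under 0.05. Over all tested transcripts 5.92% were lower and 4.69% higher. None passed an FDR of 0.05 (smallest limma adjusted p 0.359), and the median of these genes was −0.05. The lower ones included Atad5, which unloads PCNA, at −0.41, the folate enzyme Mthfd2 at −0.27, the clamp loader subunit Rfc1 at −0.20 and the polymerase delta subunit Pold4 at −0.17. The higher ones were the replication protein A subunit Rpa3 at 0.33, Dbf4, the activator of the replication kinase, at 0.26, the origin subunit Orc5 at 0.24 and the deoxycytidine kinase Dck at 0.20. Without B6-ChrYSJL replicate 3 the count of lower genes was 2.

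The regulators of cell cycle entry and the genes of mitosis framed the members. Of 24 measured regulators, among them the E2F factors, the retinoblastoma family, D-type cyclins, Cdk2, Cdk4, Cdk6 and Myc, 0 were lower or higher at an unadjusted p under 0.05 in limma; the smallest adjusted p was 0.491 and the median was −0.03. Of 24 mitotic genes, 14 were lower at an unadjusted p under 0.05 (58.3%) and 0 higher, with a median of −0.23. Over all tested transcripts 5.92% were lower, and 7.15% of those above background. Mki67, a marker of cycling cells, read 6.60, 6.38 and 6.33 in B6 and 5.77, 5.70 and 5.98 in B6-ChrYSJL, separate groups at −0.62 (SE 0.10, limma adjusted p = 0.148), with a B6-ChrYSJL mean below the background level, and Top2a, the topoisomerase that resolves sister chromatids, was at −0.48. Bub1b, Birc5, Ccna2 and Ccnb2 were lower at −0.42, −0.33, −0.32 and −0.24. The B6-ChrYSJL means of Bub1b and Birc5 were also below background, so the measured differences of these and of Mki67 are not exact sizes. Only 12 of the 24 mitotic genes lay above background, 6 were lower among transcripts above background, and the 14 became 9 without B6 replicate 2 and 8 without B6-ChrYSJL replicate 1.

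**Figure D5:**
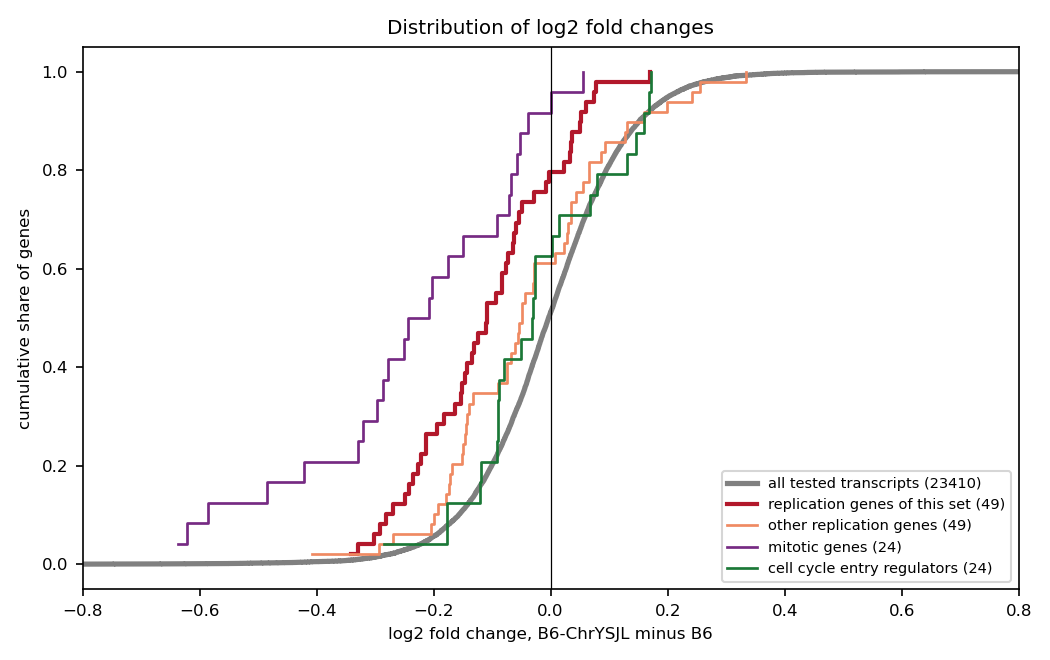
Cumulative share of genes (vertical axis) against the log2 difference (horizontal axis, B6-ChrYSJL minus B6) for all tested transcripts, the 49 members, the other replication genes, the cell cycle entry regulators and the mitotic genes, 1 line each. The mitotic genes and the members lie left of the line of all transcripts, with medians of −0.23 and −0.11 against −0.0036, and the other replication genes and the regulators lie nearer to it, at −0.05 and −0.03.

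Among markers of other cells, the CD8 pair and some others were separate between the groups, and no marker passed an FDR of 0.05. Cd8a and Cd8b1 were both lower in B6-ChrYSJL without overlap, at −0.54 (SE 0.12, limma adjusted p = 0.277) and −0.28 (SE 0.09, limma adjusted p = 0.376). All 8 measured B cell markers had a difference above 0, with a median of 0.21. H2-Ab1 at 0.64 and H2-Eb1 at 0.37 were higher at an unadjusted p under 0.05, and Ms4a1 was below background. The mean of the 8 B cell markers, each centred on its 6-array mean, was highest in B6-ChrYSJL replicates 3 and 2, at 0.37 and 0.20, and −0.17 in replicate 1, the pool with the lowest replication genes, which lay among the B6 pools (−0.19, −0.14 and −0.06). The pools of every B cell marker overlapped between groups. Of 7 myeloid and 6 NK cell markers, 4 and 5 lay below background, Ncr1 and Klrb1c among them. All 6 NK differences were below 0, with a median of −0.13, and the myeloid differences split, 4 below and 3 above 0. Without overlap, Itgam was lower at −0.10 and, both below background, Gzmb was lower at −0.16 and Itgax higher at 0.17. Of 5 plasma cell markers, Prdm1 at −0.30 and Irf4 at −0.20, which activated T cells also express, were lower at an unadjusted p under 0.05, without overlap. The other plasma cell markers lay above 0: Xbp1 at 0.01 and, with 6-array means below background, Jchain at 0.18 and Sdc1 at 0.13, Sdc1 without overlap. The part of these cells in the lower replication genes was not tested.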

How the data were processed

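RNA of CD4+TCRβ+ lymph node cells was measured on 6 Affymetrix Mouse Gene 1.0 ST arrays, 3 pools of each strain. The log2 values were deposited by the authors, 1 for each transcript cluster on each array, after RMA (background correction, quantile normalization and median polish) in Partek Genomic Suites. GCOS and the mm9 build also appear in the submitters' processing notes. The deposited values were used without further normalization. The quantile step of RMA brings the arrays' distributions close together, so a shift shared by most genes would be reduced. The upper quartiles of the deposited arrays were still 8.16, 8.18 and 8.19 in B6 and 8.13, 8.17 and 8.14 in B6-ChrYSJL. After a repeated quantile normalization the median difference of the members was −0.08. The part of the quartiles in the lower replication genes was not tested.

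The platform annotation gave 1 gene symbol to 21789 of the 35556 deposited clusters and several to 1621, and these 23410 entered the test. The difference between strains was fitted without a block by lmFit and eBayes of limma 3.58.1 (R 4.3.3), and p-values were adjusted over all 23410 clusters by Benjamini-Hochberg. The fit was tested on simulated data. Clusters with several symbols were not named. Figures and promoter searches used Python 3.11.15 and matplotlib 3.10.9. Promoters came from RefSeq for GRCm38.p6 and were matched by symbol.

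The members and lists were chosen with earlier results of these data known. Values in every pool are given for members at an unadjusted p under 0.05 and, in each role, for the member with the smallest p and the one with the highest mean; of the other lists, at most 8 genes above background at that p were named, by p. The second clusters of Pclaf, Pcna and Tk1 were looked at after the data were seen. Genes of the lists without a cluster of their own were left out. Replicate numbers name pools and were not used to pair them. The alternatives were a trend and robust variance model, an ordinary linear model, array weights, a filter on dim clusters, all clusters, median-centring, a repeated quantile normalization, the mean over a gene's clusters, the replicate block, leaving out each array and, added after seeing the data, the dimmer clusters.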

Additional observations from a re-analysis of the deposited data

How the results depend on the processing

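The count of members lower at an unadjusted p under 0.05 was 11 to 13 under the alternatives with all arrays and 10 to 15 with 1 pool left out, the median difference stayed between −0.08 and −0.14, and 0 members passed an FDR of 0.05 in limma or in the ordinary linear model. The count of members lower without overlap was 15 to 21 with 1 pool left out and 12 after a repeated quantile normalization. With fewer pools, ranges separate more easily, so the counts with 1 pool left out cannot be set against the 15 of all pools. The share over all tested transcripts was not computed for those fits. Members higher at an unadjusted p under 0.05 numbered 0 to 1 with 1 pool left out (Ccne2, without B6 replicate 2), as did members higher without overlap, which numbered 1 with the dimmer clusters (Pcna). The mitotic count of 14 fell to 8 in the ordinary linear model, 6 among transcripts above background and 8 to 11 with 1 pool left out. The count of lower cell cycle entry regulators was 1 among transcripts above background and 0 to 2 with 1 pool left out, and that of other replication genes 2 to 8. Of the named members near 0, Rpa1 was 0.0349 after a repeated quantile normalization and −0.085 to 0.0473 with 1 pool left out, Mcm4 −0.0277 to 0.102 and Tipin −0.0617 to 0.145. The cause was not tested. The replicate numbers did not pair the pools: deviations of same-numbered pools correlated at −0.0001, −0.0358 and −0.0166, and with the replicate block 12 members were lower, without Pclaf. Centring moved the median of all tested transcripts to −0.0141. Signal over background limits the dim members: Orc1, Mcm10 and Gins1 lay below the background level in both groups.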
